A study of Mus musculus with 6 samples.

Results

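The expression of 5 genes that set glucose entry and the early control of glycolysis was examined in mouse induced pluripotent stem cells (iPSCs) treated with intermittent compressive force (ICF). The genes were chosen by name and were Slc2a1, Slc2a3, Pfkfb2, Pfkfb3 and Pfkfb4. All 5 were found among the 50686 genes of the count files and all 5 passed the filter on low counts.

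Glucose crosses the plasma membrane down its gradient through transporters of the SLC2 (GLUT) family. Slc2a1 encodes GLUT1, the widely expressed transporter of proliferating cells, and Slc2a3 encodes GLUT3, a high-affinity transporter known from neurons and early embryos. The PFKFB genes encode bifunctional enzymes that make and degrade fructose 2,6-bisphosphate, the strongest allosteric activator of the glycolytic enzyme phosphofructokinase and an inhibitor of fructose bisphosphatase. The isozymes differ in the balance of kinase and phosphatase activity: the Pfkfb3 product acts mainly as a kinase, Pfkfb2 is known from heart, Pfkfb4 from testis and tumours, and Pfkfb1 from liver and muscle. Slc2a1, Slc2a3, Pfkfb3 and Pfkfb4 are textbook targets of the hypoxia-inducible transcription factors.

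The iPSCs had been reprogrammed from gingival fibroblasts and were formed into embryoid bodies in the presence of retinoic acid. The attached embryoid bodies were kept in serum-free medium for 24 h, either unloaded (Control, 3 samples) or under ICF of 1.5 g per square centimetre at 0.23 Hz (ICF, 3 samples). Strand-specific mRNA libraries were sequenced as single reads, and the labels give each sample a donor number, from 1 to 3 in each group, called the replicate here. The methods describe independent experiments with iPSCs grown on feeder cells and name no donors. The p-values may therefore measure only the spread between experiments, and not that between donors or iPSC lines.

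The libraries held 28711166 to 34194413 gene-assigned reads. Multiples of 4 made up 89.0% of the nonzero counts in ICF replicate 3 but 20.3% to 21.5% in each other sample, so the changes of the 5 genes are also given without it. The pluripotency markers were abundant, as the cell label states. Their 8 genes, Pou5f1, Nanog and Sox2 among them, summed to 3050 to 3653 CPM (counts scaled to a library of fixed size) in the Control and 2882 to 3331 CPM in the ICF samples, and 0 of 8 passed the test in edgeR, with 1 lower at an unadjusted p under 0.05 and 1 lower in DESeq2 (Dppa5a in each case). Mesenchymal markers summed to 353 to 391 CPM against 388 to 402 CPM, with 0 of 7 called (1 at an unadjusted p under 0.05 and 0 in DESeq2). Most of this sum was Pdgfra (178 CPM in the Control and 182 CPM with ICF) and Vim (163 and 180 CPM). Meox1, Twist1, Prrx1, Pdgfrb and Snai2 each averaged 15.1 CPM or less in the Control. Fibroblast markers are also expressed by feeder cells, which the methods state were removed before embryoid bodies formed. These markers summed to 38.7 to 66.1 CPM in the Control and 67.0 to 89.9 CPM with ICF. Of 6 tested, 2 were higher (Col1a1 and Col3a1), and the median was 0.55 on the log2 scale. Without ICF replicate 3 only 1 was higher, and Col3a1 lost its call (edgeR, adjusted p = 0.0696). Neural markers summed to 114 to 123 CPM against 111 to 120 CPM, a sum in which Tubb3 had the largest part (75.8 CPM in the Control and 64.8 CPM with ICF). Of these 7, 1 was higher in edgeR (Neurod1) and 2 in DESeq2 (Nes and Neurod1), 3 were higher and 1 lower at an unadjusted p under 0.05, and the median was 0.49 on the log2 scale. Endoderm markers summed to 262 to 281 CPM against 246 to 283 CPM with 1 of 5 lower (Sox17). Without ICF replicate 3, Sox17 lost its call (edgeR, adjusted p = 0.0705). Erythroid markers summed to at most 1.46 CPM, with Hbb-bt and Hbb-bs at 0, and the 1 gene tested was not called in edgeR, at an unadjusted p under 0.05 or in DESeq2. Of all 16729 genes tested in edgeR, 3.47% were higher and 4.38% lower, and DESeq2 called 877 higher and 1071 lower of 29735 genes. The share of all genes at an unadjusted p under 0.05 is not given. Counts at that level, here and in the lists below, therefore have no background beside them. The part of these cell types in the values below was not tested, and in bulk RNA fewer cells of a type and less RNA per cell cannot be told apart.

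Slc2a1 and Pfkfb3 fell steeply with ICF, to 37.1% and 37.7% of the Control level, Slc2a3 fell to 69.1%, and neither Pfkfb2 nor Pfkfb4 passed the test. Thus 3 of the 5 genes were lower and 0 were higher at an adjusted p under 0.05 in edgeR's quasi-likelihood test. Of all 16729 genes tested, 733 (4.38%) were lower and 580 (3.47%) were higher. The log2 fold changes had a median of −0.53 over the 5 genes and 0.0026 over all genes tested. The same 3 genes were lower when the replicate number was added as a block, a fit in which 15.3% of all genes were lower and 14.6% higher, and when ICF replicate 3 was left out, where 4.52% of all genes were lower. The 3 lower genes were also those whose groups did not overlap, as for 15.7% of all tested genes with ICF lower.

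**Figure D1:**
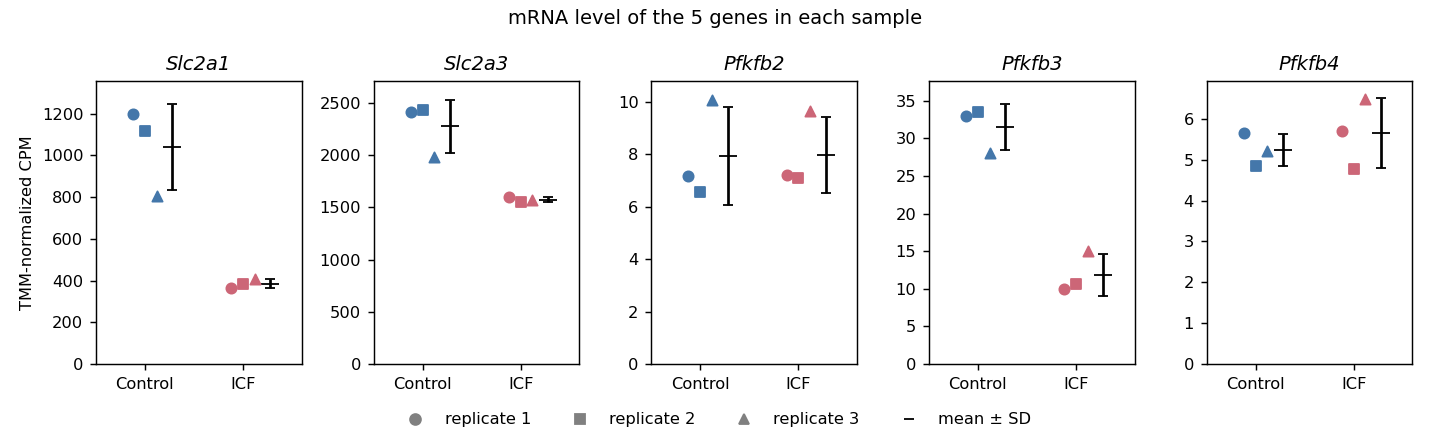
TMM-normalized CPM of the 5 genes in each sample (vertical axes start at 0 and differ between panels; marker shapes give the replicate, bars the mean and SD of 3 samples). For Slc2a1, Slc2a3 and Pfkfb3 every ICF sample lay below every Control sample, whereas the groups overlapped for Pfkfb2 and Pfkfb4.

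Slc2a1 and Pfkfb3 fell to similar percentages of the Control level. The RefSeq sequence just upstream of the start sites was inspected for the core of the hypoxia response element. The letters searched were ACGTG and GCGTG on either strand, and an ACGTG on each strand that overlap form the E-box CACGTG. RefSeq windows were available for 4 of the 5 genes, Slc2a1, Pfkfb2, Pfkfb3 and Pfkfb4, with 7 start sites in all. The 250 bases before the start are shown for Slc2a1 (GRCm38.p6, chr4:119108495-119108744, plus strand), for 2 start sites of Pfkfb3 (chr2:11553930-11554179 and chr2:11502091-11502340, minus strand) and, as a gene that did not pass the test, for Pfkfb4 (chr9:108991652-108991901, plus strand). Each is written 5′ to 3′ on the strand of the gene, and capitals mark the searched letters on either strand, GCGTG on the opposite strand reading CACGC.
Slc2a1: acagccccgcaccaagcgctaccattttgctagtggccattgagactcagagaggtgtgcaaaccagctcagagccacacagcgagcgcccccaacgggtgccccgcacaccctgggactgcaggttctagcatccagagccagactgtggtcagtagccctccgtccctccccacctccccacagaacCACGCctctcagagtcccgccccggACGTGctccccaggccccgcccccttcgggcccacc
Pfkfb3, upstream start: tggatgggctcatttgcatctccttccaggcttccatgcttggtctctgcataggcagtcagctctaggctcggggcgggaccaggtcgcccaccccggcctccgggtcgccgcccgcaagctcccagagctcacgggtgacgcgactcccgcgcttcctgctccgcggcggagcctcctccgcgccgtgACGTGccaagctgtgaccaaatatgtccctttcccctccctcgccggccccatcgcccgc
Pfkfb3, internal start: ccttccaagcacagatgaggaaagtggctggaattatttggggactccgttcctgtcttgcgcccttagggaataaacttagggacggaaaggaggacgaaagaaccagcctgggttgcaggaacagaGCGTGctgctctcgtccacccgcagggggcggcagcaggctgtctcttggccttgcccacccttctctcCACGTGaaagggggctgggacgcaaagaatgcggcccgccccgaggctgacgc
Pfkfb4: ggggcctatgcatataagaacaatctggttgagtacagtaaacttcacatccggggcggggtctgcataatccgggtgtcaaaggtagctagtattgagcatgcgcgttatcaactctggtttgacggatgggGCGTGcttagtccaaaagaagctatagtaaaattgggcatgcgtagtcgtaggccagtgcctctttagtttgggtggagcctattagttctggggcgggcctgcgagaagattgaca

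Counted from the start site, the Slc2a1 window held GCGTG on the opposite strand from −61 to −57 and ACGTG from −36 to −32. The upstream start of Pfkfb3 had ACGTG from −60 to −56, and the internal start had GCGTG from −122 to −118 and the E-box CACGTG from −53 to −48. The Pfkfb4 window held GCGTG from −117 to −113. The windows of Pfkfb2 held 4, 1 and 1 matches, and the first of them also held the E-box CACGTG, from −22 to −17. All 7 windows therefore held a match, those of the genes that did not pass the test included. They came from only 4 genes, and the first and second windows of Pfkfb2 share bases. The GC content of these windows was 46.4% to 68.4%, and the shares given next were not matched for it. A match was present in 38.6% of all 32851 RefSeq windows of this length and in 54.0% of the 14873 windows of genes tested here, and CACGTG in 6.0% of all windows. A match describes letters in these windows and is no binding site.

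The transporters carried the most abundant mRNAs of the group. Slc2a1 (ENSMUSG00000028645, GRCm38 chromosome 4, 119108711 to 119137983, plus strand) measured 1198, 1116 and 805 CPM in Control replicates 1, 2 and 3, and 366, 384 and 406 CPM with ICF. Every ICF sample lay below every Control sample. The lowest Control value and the highest ICF value were both in replicate 3. The mean fell from 1040 ± 207 to 385 ± 20.1 CPM (SD, n = 3), or 37.1% of the Control. The log2 fold change was −1.43 with an SE of 0.18 from the spread of log2 CPM, and the adjusted p in edgeR was 0.00081. By this p it stood at rank 47 of the 16729 genes, and 79 of the lower genes had a larger fall. Without ICF replicate 3 the log2 fold change was −1.46, and without replicate 3 of both groups it was −1.63. The exact permutation test over the 6 samples gave p = 0.1, which is the smallest that 3 samples against 3 allow.

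Slc2a3 (ENSMUSG00000003153, chromosome 6, 122727809 to 122801640, minus strand) measured 2414, 2435 and 1981 CPM in the Control samples and 1596, 1552 and 1571 CPM in the ICF samples. The groups did not overlap, the ICF samples lay close together, and the Control was lowest in replicate 3, as for Slc2a1. The mean fell from 2276 ± 257 to 1573 ± 22.1 CPM (SD, n = 3), or 69.1% of the Control. The log2 fold change was −0.53 (SE 0.098), with an adjusted p of 0.0075 in edgeR, and the change was −0.53 without ICF replicate 3. Without Control replicate 2 the adjusted p in edgeR was 0.0525 and the call was lost. The pseudogene Gm4482 lies within the locus on the same strand, at 2.55 CPM in the Control.

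GLUT1 and GLUT3 mRNA thus fell by unequal amounts, which was examined as the ratio of the levels per exon length within each sample, where the scaling between samples cancels. The log2 ratio of Slc2a1 to Slc2a3 was 0.037, −0.078 and −0.25 in the unloaded samples and −1.08, −0.97 and −0.90 with ICF. By this measure the transporters were near parity in the unloaded samples, and Slc2a3 exceeded Slc2a1 in all 3 ICF samples. Parity depends on the length used. Divided by the longest transcript instead, the Control means were 364 for Slc2a3 and 319 for Slc2a1, with samples that overlapped. The ratio differed by −0.89 (SE 0.098, exact permutation p = 0.1, the smallest possible with n = 3 per group), and by −0.96 to −0.82 with any 1 sample left out. Slc2a1 made up 48.3% ± 2.51 of the summed level per length of the pair in the Control and 33.6% ± 1.35 with ICF. The same sum fell from 611 ± 93.9 to 327 ± 4.90 RPKM (CPM per kilobase of exon), or 53.5% of the Control (exact permutation p = 0.1, n = 3 per group). The pair held 96.3% ± 0.33 of the summed level per length of 15 listed hexose transporters in the Control and 93.4% ± 0.86 with ICF.

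The PFKFB mRNAs were present at far lower levels. Pfkfb3 (ENSMUSG00000026773, chromosome 2, 11471433 to 11554077, minus strand) measured 33.0, 33.5 and 28.0 CPM in the Control samples and 9.93, 10.6 and 15.1 CPM in the ICF samples. The groups did not overlap, and ICF replicate 3 stood above the other ICF samples. The mean fell from 31.5 ± 3.06 to 11.9 ± 2.78 CPM (SD, n = 3), or 37.7% of the Control. The log2 fold change was −1.41 (SE 0.20, edgeR, adjusted p = 0.0017). This gene stood at rank 86 by p. Without ICF replicate 3 the log2 fold change was −1.61, and without replicate 3 of both groups it was −1.70. The counts behind these values were 345 to 1050 per sample, and that of ICF replicate 3 (436) was a multiple of 4.

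Pfkfb2 (ENSMUSG00000026409, chromosome 1, 130689182 to 130729253, minus strand) measured 7.19, 6.55 and 10.1 CPM in the Control samples and 7.20, 7.11 and 9.67 CPM with ICF. The groups overlapped throughout, with replicate 3 the highest of each. The means were 7.94 ± 1.89 and 7.99 ± 1.45 CPM (SD, n = 3), and the log2 fold change was 0.0080 (edgeR, adjusted p = 0.986). The 95% interval of the difference in log2 CPM ran from −0.64 to 0.68, so a change of up to 0.641-fold or 1.604-fold lies within it. Taken from the differences between same-numbered samples, an interval added after seeing the data, it ran from −0.21 to 0.25, or 0.866-fold to 1.19-fold. Without ICF replicate 3 the log2 fold change was −0.14. A share of 25.3% of the 75-base stretches of its longest transcript also occurs in the read-through gene Gm29427 on the same strand, and reads assigned to more than 1 gene are dropped in counting. Its level is therefore uncertain, and it also overlaps Yod1 on the opposite strand, which held 7.67 CPM in the Control.

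Pfkfb4 (ENSMUSG00000025648, chromosome 9, 108991778 to 109032228, plus strand) measured 5.65, 4.85 and 5.22 CPM in the Control samples and 5.70, 4.78 and 6.49 CPM with ICF. The groups overlapped, and the lowest and the highest of the 6 values were both ICF samples. The means were 5.24 ± 0.40 and 5.66 ± 0.86 CPM (SD, n = 3), with a log2 fold change of 0.11 (SE 0.14, edgeR, adjusted p = 0.694) and a 95% interval from −0.29 to 0.50, or 0.816-fold to 1.41-fold. From the differences between same-numbered samples the interval ran from −0.36 to 0.56. Without ICF replicate 3 the log2 fold change was 0.0091. The counts were 150 to 198 per sample, and that of ICF replicate 3 (188) was a multiple of 4. Neither interval reaches a fall of the size measured for Pfkfb3.

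Pfkfb3 was therefore also compared with its relatives within each sample. The log2 ratio of Pfkfb3 to Pfkfb4 per exon length was 1.92, 2.16 and 1.79 in the unloaded samples and 0.17, 0.52 and 0.58 under load, with no overlap between groups. It differed by −1.53 (SE 0.17), and the ratio of Pfkfb3 to Pfkfb2 differed by −1.45 (SE 0.28), each at an exact permutation p of 0.1 with n = 3 per group. With any 1 sample left out these differences ran from −1.61 to −1.40 and from −1.72 to −1.28. The share of Pfkfb3 in the summed level per length of Pfkfb1 to Pfkfb4 was 41.4%, 42.3% and 38.1% in the unloaded samples and 19.5%, 22.4% and 25.1% under load. It fell from a mean of 40.6% ± 2.185 to 22.3% ± 2.82 (exact permutation p = 0.1, n = 3 per group), while the mean share of Pfkfb1 was 38.2% and 45.3%, that of Pfkfb2 10.8% and 15.7% and that of Pfkfb4 10.5% and 16.6%. The shares sum to a fixed total, so a fall of one raises the others. The summed level itself was 10.2 ± 0.47 RPKM in the Control and 6.98 ± 0.85 RPKM with ICF, or 68.0%.

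**Figure D2:**
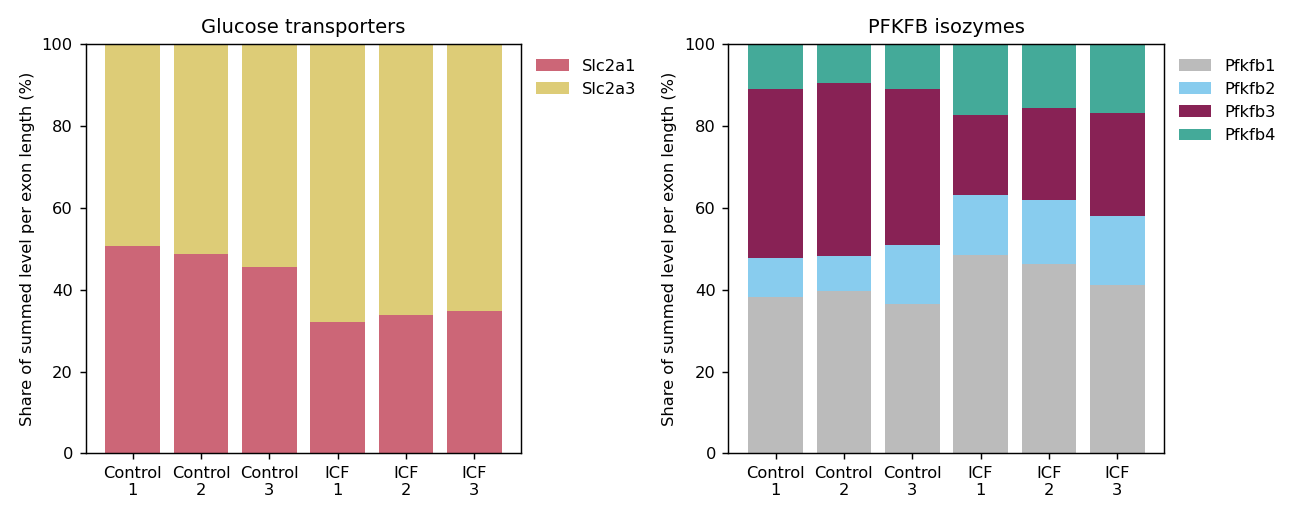
Share of each gene in the summed level per exon length, in percent, for Slc2a1 and Slc2a3 (left) and for the PFKFB isozymes (right), with 1 bar per sample. The Slc2a1 part shrank from 45.7% to 50.6% in the Control to 32.2% to 34.8% with ICF, and the Pfkfb3 part from 38.1% to 42.3% to 19.5% to 25.1%.

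Ordered by level per exon length, Slc2a3 (314 ± 35.4 RPKM) and Slc2a1 (297 ± 59.2 RPKM) headed the Control and overlapped. Pfkfb3 (4.17 ± 0.40 RPKM) and Pfkfb1 (3.92 ± 0.32 RPKM) followed and overlapped, and Pfkfb2 (1.10 ± 0.26 RPKM) and Pfkfb4 (1.08 ± 0.08 RPKM) came last and overlapped. With ICF, Slc2a3 (217 ± 3.05 RPKM) stood clear of Slc2a1 (110 ± 5.73 RPKM). Pfkfb1 (3.15 ± 0.21 RPKM) stood clear of Pfkfb3 (1.57 ± 0.37 RPKM), whose samples overlapped those of Pfkfb4 (1.16 ± 0.18 RPKM), and Pfkfb2 (1.10 ± 0.20 RPKM) again overlapped Pfkfb4. The overlap of Pfkfb3 with Pfkfb4 rested on ICF replicate 1 of Pfkfb3 (1.31 RPKM) and replicate 3 of Pfkfb4 (1.33 RPKM), and within each ICF sample Pfkfb3 was the higher of the pair.

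The similarity of patterns was measured as the root mean square difference of log2 CPM, each gene centred on its own mean over the 6 samples, among 11914 genes that averaged 100 counts or more. Nearest to Slc2a1 were the glycolytic enzyme genes Tpi1 (0.072) and Pgk1 (0.073) and then Prelid2 (0.078), against a median of 0.742 over genes. Nearest to Pfkfb3 were Stc2, which encodes a secreted glycoprotein (0.072), Lef1, a transcription factor of the Wnt pathway (0.099), and Pygl, the liver glycogen phosphorylase (0.122), against a median of 0.757. Slc2a1 and Pfkfb3 were 0.176 apart. Both had their lowest Control and their highest ICF value in replicate 3. Slc2a3 was nearest to Limch1 (0.029), the cyclin gene Ccnd2 (0.030) and the NF-kB subunit gene Relb (0.036). Nearest to Pfkfb2 were Gpcpd1 (0.034), Lgals9 (0.038) and Zfp28 (0.039), and to Pfkfb4 Armcx5 (0.052), Dusp19 (0.057) and Tob1 (0.058). The median over genes was 0.306 for Slc2a3, 0.276 for Pfkfb2 and 0.198 for Pfkfb4. The nearest genes were picked for their small distances, so their place below a median is no result.

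The enzymes on which fructose 2,6-bisphosphate acts, or which share its turnover, were then examined as a list of 7 genes, of which 6 were tested and Fbp1 was too low. In this list 2 were lower and 0 higher, and the median was −0.25 on the log2 scale. Both were subunits of phosphofructokinase: Pfkl, the liver-type gene, fell from 744 ± 137 to 300.4 ± 11.04 CPM (log2 fold change −1.31, edgeR, adjusted p = 0.00083), and Pfkp, the platelet-type gene, from 492 ± 19.0 to 213 ± 9.005 CPM (−1.21, edgeR, adjusted p = 0.00011). With the replicate block, where 15.3% of all genes tested were lower, 4 of this list were lower, with the muscle-type gene Pfkm and Pfkfb1 added. Pfkfb1 measured 15.7 ± 1.29 CPM in the Control and 12.6 ± 0.82 CPM with ICF without overlap, at an adjusted p of 0.092 in edgeR and 0.0083 with the block. It overlaps Apex2 on the opposite strand, which was higher with ICF (22.0 and 26.8 CPM, edgeR, adjusted p = 0.049), and whether counting used the strand is not stated.

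No other hexose transporter passed the test. Of 13 listed genes, 9 were tested, and Slc2a2, Slc2a9, Slc2a10 and Slc5a2 were too low. In edgeR 0 of 9 passed, 2 were lower at an unadjusted p under 0.05 (Slc2a8 and Slc2a12), DESeq2 called 1 of them lower (Slc2a8), and the median log2 fold change was −0.069. Slc2a8, an intracellular transporter, measured 19.5 ± 2.183 and 14.3 ± 2.38 CPM (log2 fold change −0.45, edgeR, adjusted p = 0.082, and 7.3e-05 with the replicate block).

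Regulators of transporter abundance and trafficking and regulators of the PFKFB enzymes gave no calls in edgeR without the block. Of 9 genes of the first list, 0 passed, 1 was lower at an unadjusted p under 0.05 (Tbc1d1), DESeq2 called 0, and the median log2 fold change was −0.10. Txnip, which promotes GLUT1 internalization, measured 214 ± 41.3 and 186 ± 15.1 CPM (edgeR, adjusted p = 0.393, and 0.011 with the block). With the block 3 of 9 were lower, Txnip, the Rab GTPase-activating gene Tbc1d1 and Gipc1, whose product binds the GLUT1 tail. In that fit 15.3% of all genes tested were lower. Of 14 genes of the second list, which holds AMPK and PKA subunits, other kinase genes such as Rps6ka1, and the ubiquitin ligase adaptors Fzr1 and Btrc, 0 passed, 1 was lower at an unadjusted p under 0.05, DESeq2 called 0, and the median log2 fold change was −0.0036.

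Of 18 other glycolysis enzymes, 17 were tested, and 11 were lower and 0 higher in edgeR, and their log2 fold changes had a median of −0.78. The 6 with the smallest adjusted p were Pgk1, Tpi1, Aldoc, Aldoa, Hk2 and Gpi1, with log2 fold changes of −1.49, −1.35, −2.37, −1.27, −0.79 and −1.07. Slc2a1 and Pfkfb3, at −1.43 and −1.41, lay within the range of these enzymes. Of the 9 oxygen-sensing regulators, 2 were lower and 0 higher in edgeR. Both lower genes encode prolyl hydroxylases that mark the hypoxia-inducible factors for degradation. At an unadjusted p under 0.05, 5 were lower and 2 higher, with no share of all genes to set beside them. DESeq2 called 2 lower and 1 higher (Hif1a), against 1071 lower and 877 higher of 29735 genes. With the block 5 were lower and 2 higher, against 15.3% and 14.6% of all genes tested. Egln3 fell from 210.4 ± 59.8 to 31.6 ± 3.63 CPM (edgeR, adjusted p = 0.00036) and Egln1 from 97.6 ± 24.1 to 40.1 ± 7.62 CPM (edgeR, adjusted p = 0.0068). Hif1a, the gene of the oxygen-regulated subunit, measured 139 ± 19.0 and 183 ± 23.8 CPM (log2 fold change 0.39, edgeR, adjusted p = 0.074, and 1.7e-07 with the block).

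**Figure D3:**
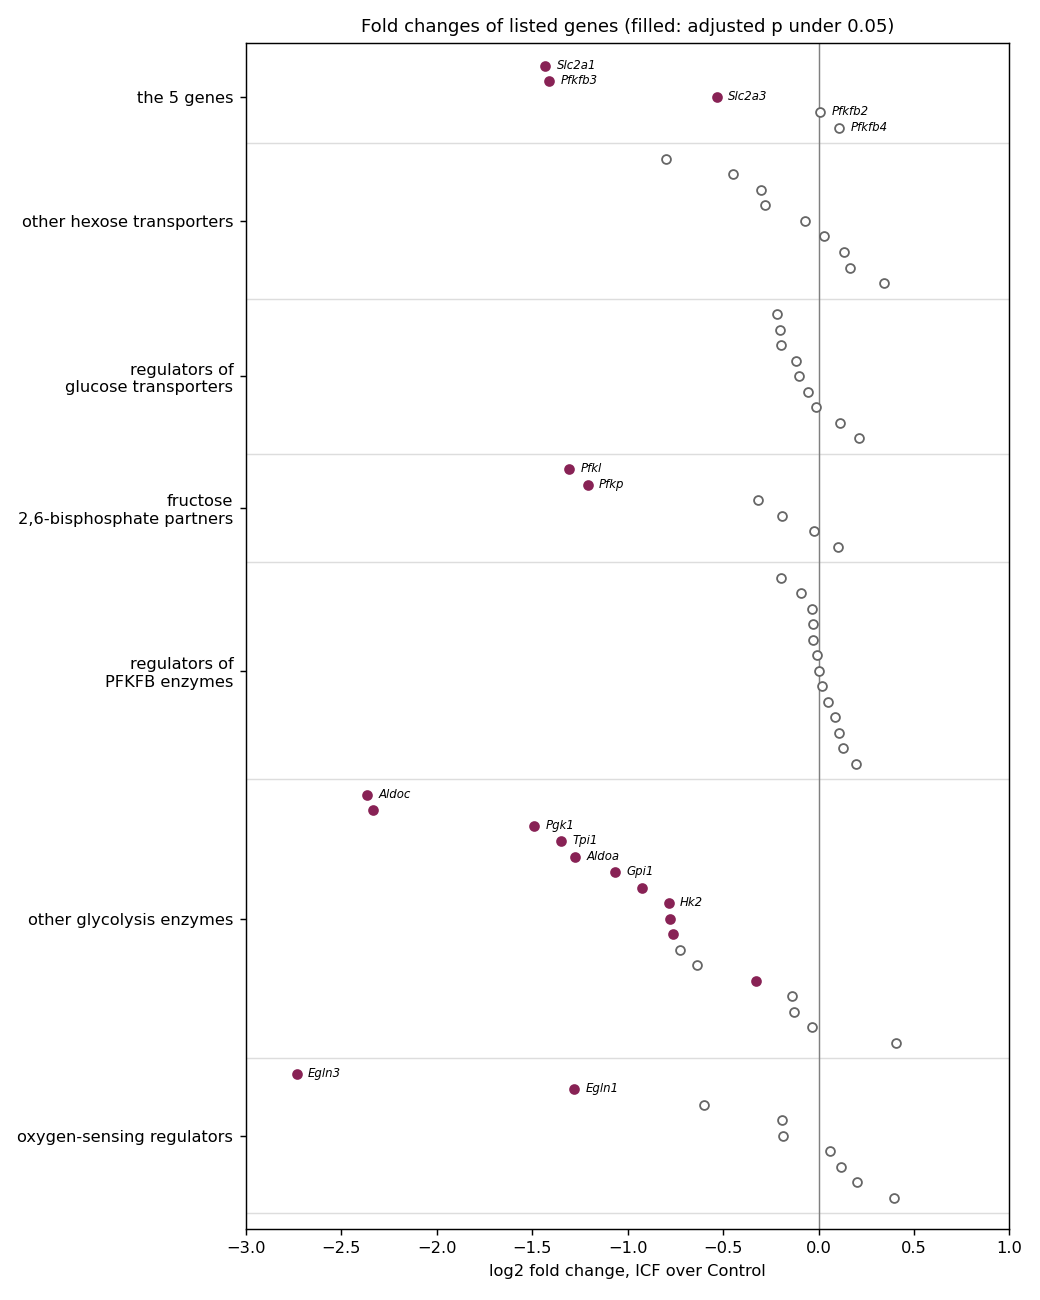
Log2 fold change of ICF over Control for the 5 genes and for tested genes of each list, 1 point per gene and 1 PFKFB regulator not shown, filled where the adjusted p in edgeR was under 0.05, with the 5 genes and up to 6 called genes per list named. The filled points, all below 0, are 3 of the 5 genes, 2 phosphofructokinase genes, 11 glycolysis enzymes and 2 prolyl hydroxylase genes.

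The log2 fold changes of the 5 genes were recomputed under 15 other settings. That of Slc2a1 stayed between −1.63 and −1.32 and that of Pfkfb3 between −1.70 and −1.29, and both stayed past the threshold in all 15. The adjusted p of Slc2a1 was at most 0.00814 and that of Pfkfb3 at most 0.0156 in edgeR or DESeq2. Slc2a3 stayed past the threshold in 14 of 15, with adjusted p from 5.3e-10 to 0.0525 in edgeR or DESeq2. Pfkfb2 and Pfkfb4 passed in 0 of 15, with adjusted p of at least 0.434 and 0.437.

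**Figure D4:**
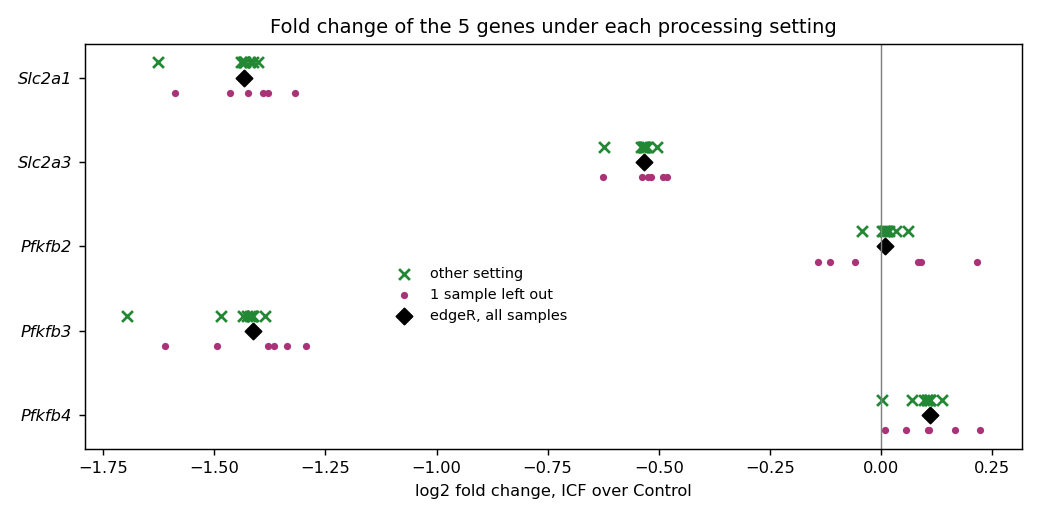
Log2 fold change of ICF over Control of the 5 genes in edgeR with all samples (diamonds), under each other setting (crosses) and with each sample left out in turn (dots). The values of Slc2a1, Slc2a3 and Pfkfb3 lay below 0 in every setting shown, those of Pfkfb2 on either side of 0, and those of Pfkfb4 between 0.0015 and 0.22.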

How the data were processed

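The mRNA of 3 Control and 3 ICF samples was sequenced as 75-base single reads. The authors used Trimmomatic to filter reads, HISAT2 to align them and HTSeq for counting, and deposited raw gene counts that are not normalized. HTSeq drops reads that map to several places or genes. Its tally of alignments that were not unique made up 29.5% to 31.3% of everything it tallied, which need not equal a share of reads. The submitters' processing notes name bcl2fastq 2.19 and the builds GRCm38 and hg38. Other versions and the strand setting are not given in the sources used here. Gene names and exon lengths came from GENCODE M21 (GRCm38), which named 50462 of 50686 identifiers.

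The test was the quasi-likelihood F-test of edgeR 4.0.16 under R 4.3.3 (TMM factors, filterByExpr by group, glmQLFit and glmQLFTest), with Benjamini-Hochberg adjustment over 16729 genes and a threshold of 0.05. CPM were TMM-normalized, and RPKM divided them by exon length. Standard errors came from the SDs of log2 CPM, and intervals from the t distribution with 4 degrees of freedom. Single values were compared by exact two-sided permutation over samples. The procedure was tested on simulated data. Alternatives were DESeq2 1.42.0, RLE size factors, library totals, other count filters (at least 1 count in any sample, or 10 in every sample), the replicate block in edgeR and DESeq2, ICF replicate 3 divided by 4, and samples left out.

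Donor numbers in the labels were taken to pair the samples. Over genes, deviations from the group means of samples 1, 2 and 3 correlated at 0.15, 0.197 and 0.376 with those of the same number. Control 1 with ICF 2 (0.263) and Control 2 with ICF 1 (0.174) correlated as well, whereas pairs of sample 3 with other numbers lay between −0.343 and −0.238. Deviations from a group mean cancel within the group. Negative values therefore come with the positive one of sample 3 and are no separate evidence. The correlations set replicate 3 apart and do not separate 1 from 2. The genes studied and the lists were chosen with earlier results of these data known. Named genes were the 5 genes, up to 6 called genes a list by adjusted p, genes too low to test, and the 3 nearest patterns per gene. Genes named for an unadjusted p, for DESeq2 or for the block, and those overlapping or neighbouring a studied gene, were chosen after their values were seen. A few single-gene results of the lists are not reported here.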

Additional observations from a re-analysis of the deposited data

How the results depend on the processing

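The log2 fold changes of Slc2a1, Pfkfb3 and Pfkfb4 kept their direction and side of the threshold under all 15 alternatives. That of Slc2a3 did so under 14, ranging from −0.62 to −0.48 with 1 sample left out, and lost its call without Control replicate 2. That of Pfkfb2 changed sign, to −0.043 with the counts of ICF replicate 3 divided by 4, and ranged from −0.14 to 0.22 with 1 sample left out. It passed the threshold in none of the 15.

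The replicate block changed no call of the 5 genes. It raised the number of genes called from 1313 to 5006, with 15.3% of all genes tested lower and 14.6% higher. The number was 3020 with the block in DESeq2 and 5093 without replicate 3 of both groups. With 1 sample left out the number ranged from 300 to 1652, and was 360 without Control replicate 1, 300 without Control replicate 2, 471 without ICF replicate 1 and 581 without ICF replicate 2. Other hexose transporters gave 0 calls, but 1 with DESeq2, with the filter of at least 1 count, with the block and with the block in DESeq2, and 2 without replicate 3 of both groups. For regulators of glucose transporters the number was 0, against 3 with the block in either tool, 4 without replicate 3 of both groups, and 0 to 1 with 1 sample left out (1 without Control replicate 3). For fructose 2,6-bisphosphate partners it was 2, against 4 with the block and 4 without replicate 3 of both groups. For regulators of PFKFB enzymes it was 0, against 2 with the block, 1 with the block in DESeq2 and 2 without replicate 3 of both groups. For oxygen-sensing regulators it was 2, against 4 with the filter of at least 1 count and 6 with the block in DESeq2. It was 7 with the block in edgeR (5 lower and 2 higher) and 8 without replicate 3 of both groups (5 lower and 3 higher). The share of Pfkfb3 among the PFKFB isozymes differed by −20.9 percentage points without replicate 3 of both groups, against −18.2 with all samples. The cause was not tested.

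Intervals from the differences between same-numbered samples, added after seeing the data, were narrower for Pfkfb2 (−0.21 to 0.25 against −0.64 to 0.68) and wider for the other 4 genes, and excluded 0 for the same 3 genes. With 3 samples a group, exact tests of single values cannot fall below 0.1.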
